A study of Mus musculus with 6 samples.

Results

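The F-box substrate receptor genes were examined in the left ventricle of mice carrying a point mutation in *Lztr1*. Members were all genes whose symbol in the authors' comparison table begins with Fbxl, Fbxo or Fbxw followed by a digit, with *Fbxo30* and *Fbxo32* left out. This rule used names alone and gave 45 genes (15 *Fbxl*, 22 *Fbxo* and 8 *Fbxw*) of the 12629 genes of that table and of the 56923 genes with a row of counts. RNA was sequenced from the hearts of 3 wild-type mice (*Lztr1*+/+, WT) and 3 mice labelled mutant, all 12 weeks of age, with 1 library per mouse. Per the study's methods, the mutants were *Lztr1*R409C/+ mice, heterozygous for a CRISPR/Cas9 knock-in of the substitution that is present in all cells of the animal, and both genotypes were on a background backcrossed to C57BL/6J. The study used male mice, and the ventricles were taken after perfusion with phosphate-buffered saline.

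F-box proteins are the part of the SCF ubiquitin ligase (SKP1, CUL1, F-box protein) that chooses what is ubiquitylated. The F-box motif docks on SKP1, SKP1 docks on the scaffold CUL1, and CUL1 carries RBX1 and an E2 enzyme that transfers ubiquitin to the bound protein. FBXL proteins bind substrates through leucine-rich repeats, FBXW proteins through WD40 repeats, and FBXO proteins through other domains. LZTR1 itself belongs to a different ligase, in which BTB-Kelch adaptors bring substrates such as RAS-family GTPases to CUL3. In striated muscle, F-box proteins are known for turnover of Z-disc and insulin-signalling proteins, and *Fbxo32*, which the rule leaves out, is the atrophy ligase atrogin-1.

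Promoter sequences are shown for the muscle F-box genes *Fbxo40* and *Fbxl22*, which ranked first and second per kilobase of exonic length, and, for contrast, for *Fbxl20*, a broadly expressed member. Each is the 250 bases before a RefSeq transcript start (build GRCm38.p6, minus strand, written 5′ to 3′). Capitals mark matches on either strand to the E-box CANNTG, bound by basic helix-loop-helix factors, to the M-CAT element CATTCC, bound by TEAD factors, to the MEF2-type letters CTANNNNTAG or to TATAAA.
Fbxo40, chr16:36979137-36979386: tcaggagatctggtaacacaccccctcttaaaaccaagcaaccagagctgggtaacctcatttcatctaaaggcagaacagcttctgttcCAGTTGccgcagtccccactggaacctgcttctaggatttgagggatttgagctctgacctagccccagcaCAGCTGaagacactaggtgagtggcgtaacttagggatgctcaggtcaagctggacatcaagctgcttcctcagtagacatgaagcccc
Fbxo40, chr16:36990468-36990717: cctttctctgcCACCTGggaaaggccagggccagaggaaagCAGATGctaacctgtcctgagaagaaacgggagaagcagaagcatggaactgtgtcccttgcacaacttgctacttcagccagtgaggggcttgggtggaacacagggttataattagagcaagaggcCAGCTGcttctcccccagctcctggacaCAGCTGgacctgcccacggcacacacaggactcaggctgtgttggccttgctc
Fbxl22, chr9:66514594-66514843: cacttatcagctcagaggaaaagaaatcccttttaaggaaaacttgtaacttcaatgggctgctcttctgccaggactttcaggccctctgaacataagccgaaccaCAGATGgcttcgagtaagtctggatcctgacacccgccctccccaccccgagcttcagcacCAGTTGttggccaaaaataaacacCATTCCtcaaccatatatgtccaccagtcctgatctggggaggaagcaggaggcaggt
Fbxl20, chr11:98149617-98149866: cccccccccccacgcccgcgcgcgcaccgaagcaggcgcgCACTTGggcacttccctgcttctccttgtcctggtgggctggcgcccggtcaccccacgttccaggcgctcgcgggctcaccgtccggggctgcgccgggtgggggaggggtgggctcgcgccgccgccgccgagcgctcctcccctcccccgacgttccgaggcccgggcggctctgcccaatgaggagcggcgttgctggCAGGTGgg
The first *Fbxo40* window held E-boxes beginning 160 and 89 bases before the start, and the second held 4, at 239, 209, 81 and 53 bases. The *Fbxl22* window held E-boxes at 143 and 82 bases and a CATTCC match at 58 bases. In *Fbxl20*, E-boxes lay at 210 and 8 bases. E-boxes were in 64% of the 50 promoter windows of the family, from the 35 members with an entry, and in 66.2% of all 32851 windows of the same length. The core CAGCTG, 1 form of CANNTG and present in both *Fbxo40* windows, was in 16% of member windows and 13% of all windows. CATTCC was in 12% and 12.6%, CTANNNNTAG in 6% and 3.2%, and TATAAA in 0% and 12.4%. Windows of the same gene can overlap, so a single site can be counted more than once. The member windows with CTANNNNTAG were that of *Fbxo34* and overlapping windows of *Fbxl15* that hold the same site. A CATTCC site of *Fbxw2* was likewise counted more than once. The GC box GGGCGG, bound by SP-family factors, was in 58% of member windows and 32.7% of all windows. Base composition separated the muscle pair from most of the family. Both *Fbxo40* windows held 2 CpG dinucleotides and the *Fbxl22* window held 4, against 32 in *Fbxl20*, 18 in *Fbxo31*, 11 in *Fbxl17* and a median of 14.5 over the member windows. Only 6 of the 50 member windows had at most 4 CpG, compared with 44.4% of all windows, whose median was 6, and the rest of the 6 belonged to *Fbxw7*, *Fbxo6* and *Fbxo4*. A match is a run of letters and was not tested as a binding site.

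Libraries held between 66130887 and 72641124 counts. The share from mitochondrially encoded genes was 13.8% in WT replicate 3, against 36.5% and 37.3% in the other WT mice and 29.7% to 45.4% in the mutants, and the TMM factors that scale the libraries ran from 0.800 (mutant replicate 1) to 1.39 (WT replicate 3). All levels below are CPM, read counts scaled to a common library size with the TMM factors, in which 3 counts correspond to 0.0317 to 0.0541 CPM. *Lztr1* mRNA was at 23.5 ± 1.11 CPM (SD, n = 3) in WT and 25.7 ± 2.03 CPM in mutants, which does not test the labels because the knock-in changes a codon. Defining cardiomyocyte markers were abundant, with a summed level of 35565 to 38800 CPM in WT and 25488 to 35856 CPM in mutants, the lowest value being that of mutant replicate 1. Atrial markers summed to at most 0.814 CPM and skeletal muscle markers to at most 1.32 CPM in any mouse. Macrophage markers summed to 96.6 to 106 CPM in WT and 169 to 180 CPM in mutants, and 6 of 6 were higher in mutants with 1 past the adjusted threshold. Erythroid markers ranged from 579 to 1479 CPM in WT and from 1042 to 2625 CPM in mutants, with overlapping mice. All 5 were positive (median log2 fold change 0.97), 3 of them at an edgeR unadjusted p under 0.05 (5.77% of all genes) and 0 past the adjusted threshold. Lymphocyte markers were low, at 0.538 to 1.04 CPM in WT and 1.76 to 2.60 CPM in mutants. Smooth muscle and pericyte markers summed to 635 to 745 CPM in WT and 572 to 721 CPM in mutants. Of these, 2 of 5, *Myh11* (log2 fold change -0.71) and *Tagln* (-0.65), had every mutant below every WT mouse without passing the adjusted threshold. Over all genes tested 7.23% had every mutant below. Fibroblast markers summed to 621 to 808 CPM in WT and 664 to 801 CPM in mutants, with 4 of 6 positive, and endothelial markers to 439 to 643 CPM and 407 to 652 CPM, with 4 of 5 positive. In the fibroblast and endothelial lists, *Lum* (log2 fold change 0.61), *Tcf21* (0.54) and *Emcn* (0.40) had every mutant above every WT mouse and did not pass the adjusted threshold. Every mutant also lay above every WT mouse for 5 macrophage and 2 lymphocyte markers, where 8.3% of all genes tested did so. The part of any of these in the values of the F-box genes was not tested.

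All 45 members passed the filter on low counts, with between 73 and 26231 counts for any member in any mouse. Levels between genes were compared as CPM per kilobase of exonic length. *Fbxo40*, a muscle-restricted F-box protein known to target the insulin receptor substrate IRS1, had the highest level, 43.3 ± 0.89 CPM per kilobase in WT and 34.6 ± 4.04 in mutants (SD, n = 3). Its lowest mouse, at 29.9 CPM per kilobase, lay above the highest mouse of the next gene, *Fbxl22*, at 18.8. *Fbxl22*, a heart-enriched Z-disc protein known to promote turnover of alpha-actinin and filamin C, averaged 16.2 CPM per kilobase over the 6 mice. It was followed by *Fbxw5* at 11.5, *Fbxo31* at 10.4 and *Fbxo3* at 8.57. The neighbours after *Fbxo40* did not separate, since the lowest *Fbxl22* mouse (12.5) lay below the highest *Fbxw5* mouse (13.0) and the *Fbxw5* and *Fbxo31* mice overlapped. The median member was at 2.40 CPM per kilobase. At the lower end were *Fbxo5*, known as the mitotic inhibitor EMI1, at 0.44, *Fbxw17* at 0.36 and *Fbxw9* at 0.34, again with overlapping mice. *Fbxo40* alone contributed 16.7% to 21.4% of the summed CPM of the 45 genes in each mouse. With the length of the canonical transcript in place of all exons, *Fbxo40* stayed first at 48.3 CPM per kilobase, whereas *Fbxl22* moved from rank 2 to rank 4, behind *Fbxw5* and *Fbxo31*. The lower end changed as well, since *Fbxw9* moved from rank 45 to rank 38 at 1.02 CPM per kilobase and *Fbxw17*, at 0.52, became the lowest member.

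**Figure D1:**
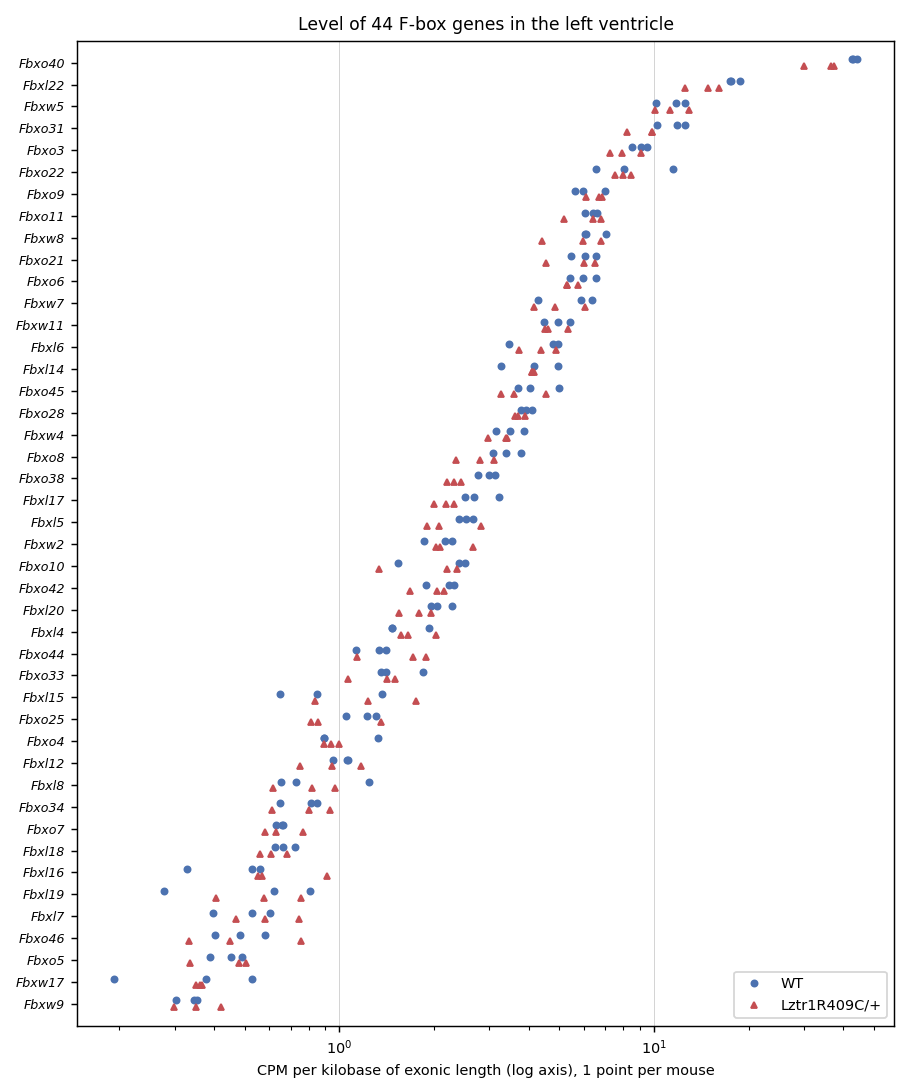
Level of 44 F-box genes in each mouse, as CPM per kilobase of exonic length on a log axis, with WT mice as circles and Lztr1R409C/+ mice as triangles. *Fbxo40* stands apart at the top, with every mouse at 29.9 or more CPM per kilobase, and the genes then form a continuous series down to *Fbxw9* at 0.34, the lowest on this length and not on that of the canonical transcript.

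Transcript levels of each receptor were compared between the genotypes. No member passed the test. In the edgeR quasi-likelihood fit, 0 of 45 members had a Benjamini-Hochberg adjusted p under 0.05, where 7 of 17212 genes tested did (0.0407%), and the smallest adjusted p of a member was 0.554. DESeq2 and the edgeR exact test also called 0 members. At an unadjusted p under 0.05, edgeR gave 2 members lower in mutants, *Fbxo38* and *Fbxl17*, and 0 higher, against 2.86% of all genes lower and 5.77% higher. DESeq2 gave 3 members lower at that p, the further gene being *Fbxo40*, and the edgeR exact test gave 2. The count was 0 with upper-quartile scaling, with library size alone and with a replicate block, and also without WT replicate 2, WT replicate 3 or mutant replicate 3, so both unadjusted calls ended under these settings.

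Fitted values lay more often below than above 0. The log2 fold change was negative for 33 members and positive for 12, with a median of -0.10 and a range from -0.37 to 0.52. Without mutant replicate 1 the median was -0.044, and without WT replicate 3 it was -0.066. Over all genes tested 48.6% were negative with a median of 0.01, and 52% were negative among genes that the authors' table lists, with a median of -0.01. By class, 10 of 15 *Fbxl* genes (median -0.10), 17 of 22 *Fbxo* genes (-0.13) and 6 of 8 *Fbxw* genes (-0.03) were negative. The summed CPM of the members was 1332, 1337 and 1421 in WT and 1157, 1246 and 1184 in mutants, so that every mutant lay below every WT mouse in this sum. With library size alone the sums overlapped, at 1227, 1210 and 1974 in WT and 926, 1227 and 1299 in mutants. *Fbxo40* made up a large share of it. The count of negative values moved with the scaling of the libraries, from 27 with upper-quartile scaling to 41 with library size alone, which also shifted the median of all genes to -0.14, and it was 27 without WT replicate 3 and mutant replicate 1.

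Level and direction went together, in the family and in the whole library. Of the 22 members with the highest mean CPM, 20 were lower in mutants with a median log2 fold change of -0.16, and of the 23 members with the lowest mean CPM, 13 were lower with a median of -0.01. This split was made after the values were seen. Among all genes tested above the same level (16.0 CPM), 63.5% were lower, compared with 40.5% of genes below it.

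**Figure D2:**
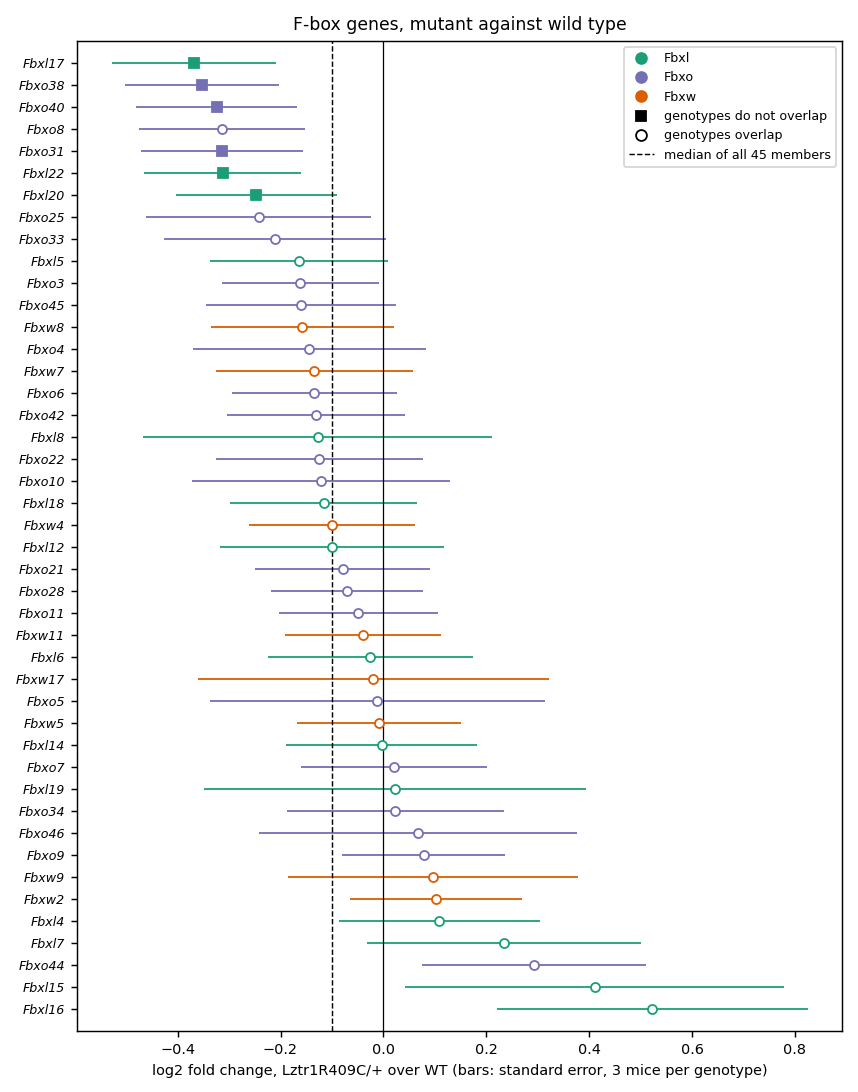
Fitted log2 fold change of 44 F-box genes, Lztr1R409C/+ over WT, with its standard error (edgeR, 3 mice per genotype). Squares are genes whose mice do not overlap between genotypes, and the dashed line is the median of the 45 members, -0.10. The 6 squares all lie to the left of 0, and no gene passed the adjusted threshold.

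The genotypes did not overlap for 6 members, *Fbxo38*, *Fbxl17*, *Fbxo40*, *Fbxl22*, *Fbxo31* and *Fbxl20*, and in each of them every mutant was below every WT mouse. For 0 members was every mutant above every WT mouse. Over all genes tested the shares were 7.23% below and 8.3% above, and over the listed genes of that comparison they were 8.42% below and 7.36% above. The count of members with every mutant below was 1 with library size alone, where 4.75% of all genes were so separated. That member was *Fbxo8*, and the genotypes of the 6 named above all overlapped under that scaling. The count was 11 without mutant replicate 1 or mutant replicate 2, beside 12.6% of all genes in each case, and 14 without both WT replicate 3 and mutant replicate 1, beside 19.9%. All 6 belonged to the 22 members of higher level, and 12.3% of all genes above 16.0 CPM had every mutant below every WT mouse. For each of these genes an exact two-sided permutation test over the mice gave p = 0.1, the smallest value that 3 against 3 allows. Any gene with separate genotypes gives this value, so the test only restates the separation.

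Members with roles in striated muscle were *Fbxo40*, *Fbxl22* and *Fbxo25*, and all 3 had negative fold changes that did not pass the test. Negative values were found for 48.6% of all genes tested and 63.5% of those above 16.0 CPM. *Fbxo40* (ENSMUSG00000047746, GRCm39 chromosome 16, 36783822 to 36810902, minus strand) was at 276, 286 and 277 CPM in WT and 193, 241 and 236 CPM in mutants. The WT mice lay within a narrow band of 280 ± 5.76 CPM (SD, n = 3), while the mutants spread over 223 ± 26.1 CPM, all below it. The mutant mean was 79.9% of the WT mean (edgeR log2 fold change -0.32, SE 0.16, unadjusted p = 0.0596, adjusted p = 0.599). *Fbxl22* (ENSMUSG00000050503, GRCm39 chromosome 9, 66415657 to 66421912, minus strand) was at 79.0, 78.5 and 84.4 CPM in WT and 72.1, 56.3 and 66.5 CPM in mutants. The groups were again separate, with mutant replicate 2 the lowest mouse for *Fbxl22* and mutant replicate 1 the lowest for *Fbxo40*. The fold change of *Fbxl22* was -0.31 (SE 0.15, edgeR unadjusted p = 0.0635, adjusted p = 0.599). Exons of *Fbxl22* share 401 bases (8.93% of its exonic length) with *Herc1* on the opposite strand, and strand-aware counting was not stated, so its counts are uncertain to that extent. *Fbxo25*, reported to target cardiac transcription factors, was at 11.5 ± 1.27 CPM in WT and 9.69 ± 2.88 CPM in mutants, with overlapping mice and a fold change of -0.24, which ran from -0.52 (without mutant replicate 2) to -0.11 (without mutant replicate 3) when single mice were left out.

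Cardiomyocyte markers also had mostly negative fold changes. Of 6 markers, 5 had negative fold changes and 0 passed the test, where 63.5% of all genes above 16.0 CPM were negative. Only *Ryr2*, the calcium release channel, had every mutant below every WT mouse, where 12.3% of genes above that level did so. Mutant replicate 1 had both the lowest marker sum, 25488 CPM, and the lowest *Fbxo40*, whereas mutant replicate 3 had a marker sum of 35856 CPM, within the WT range, and *Fbxo40* at 236 CPM, below every WT mouse. The single markers of mutant replicate 3 were mixed. *Actc1* (8110 CPM), *Ryr2* (949 CPM) and *Pln* (4472 CPM) lay below every WT mouse, *Tnnt2* (3508 CPM) above, and *Myh6* and *Tnni3* within the WT range. Without mutant replicate 1 the fold change of *Fbxo40* was -0.24 and that of *Fbxl22* was -0.40. In bulk tissue fewer cells of a type and less RNA per cell cannot be told apart.

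**Figure D3:**
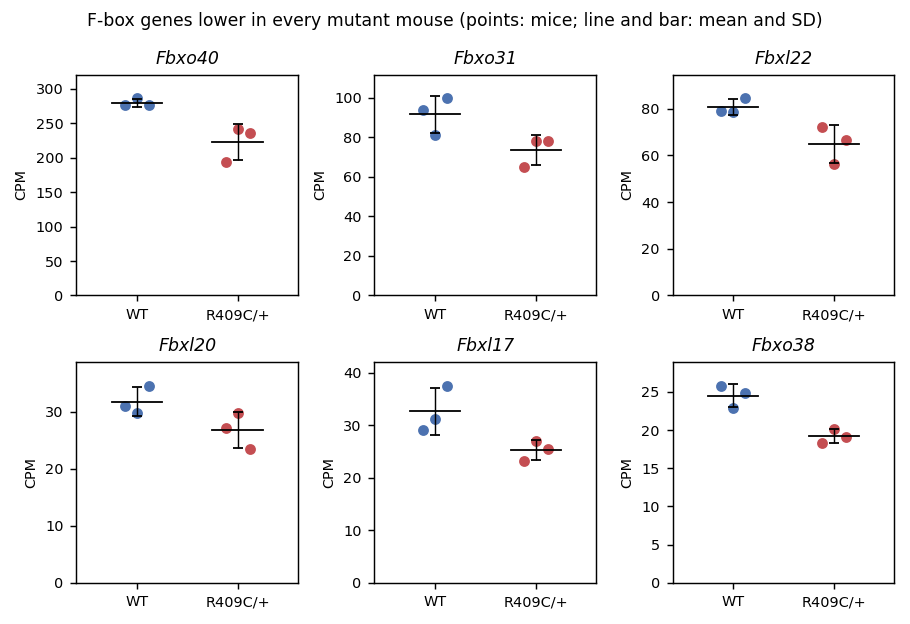
CPM of the 6 F-box genes whose genotypes do not overlap, with 1 point per mouse and the mean and SD (n = 3) of each genotype, and each axis starting at 0. Every mutant point lies below every WT point, from 20.2 to 22.9 CPM at the closest for *Fbxo38* and from 29.74 to 29.75 CPM for *Fbxl20*.

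The quality-control and synaptic group held *Fbxl17*, *Fbxl20* and *Fbxo45*, of which 3 of 3 were negative, where 63.5% of all genes above 16.0 CPM were. FBXL17 recognises wrongly paired BTB domain dimers, the domain that also builds CUL3 adaptors. *Fbxl17* (ENSMUSG00000023965, GRCm39 chromosome 17, 63364447 to 63807636, minus strand) was at 29.2, 31.1 and 37.6 CPM in WT and 23.2, 27.0 and 25.5 CPM in mutants. WT replicate 3 was the highest mouse, and the groups did not overlap. The fold change of *Fbxl17* was the most negative of the 45 members, at -0.37 (SE 0.16, edgeR unadjusted p = 0.0387, adjusted p = 0.554), and it was -0.20 without both WT replicate 3 and mutant replicate 1. *Fbxl20*, known in neurons for turnover of the presynaptic protein RIM1, was at 31.0, 29.75 and 34.6 CPM in WT and 27.1, 29.74 and 23.5 CPM in mutants. The separation of *Fbxl20* rested on the near-equal values of both replicates numbered 2, and its fold change was -0.25 (SE 0.16, edgeR unadjusted p = 0.140), or -0.16 without mutant replicate 3. *Fbxo45*, a receptor that works with the MYCBP2 ligase at synapses, had overlapping mice and a fold change of -0.16.

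Among the 13 members assigned to signalling and transcription, 10 were negative and 3 positive, with a median of -0.05. The negative share was 48.6% over all genes tested and 63.5% above 16.0 CPM. *Fbxo38* (ENSMUSG00000042211, GRCm39 chromosome 18, 62635980 to 62681965, minus strand), first described as a coactivator of the transcription factor KLF7, was at 25.8, 22.9 and 24.8 CPM in WT and 18.3, 20.2 and 19.1 CPM in mutants. It had the smallest p of the 45 members and separate genotypes, with 24.5 ± 1.51 CPM against 19.2 ± 0.938 CPM (SD, n = 3). With library size alone the genotypes of *Fbxo38* overlapped. The fold change was -0.35 (SE 0.15, edgeR unadjusted p = 0.0369, adjusted p = 0.554). *Fbxo3*, which targets the F-box protein FBXL2, was at 86.5 ± 4.76 CPM in WT and 77.4 ± 8.76 CPM in mutants, a fold change of -0.16 with overlapping mice, or -0.26 without mutant replicate 2 and -0.089 without mutant replicate 3. *Fbxw11*, the beta-TrCP paralogue that binds phosphorylated beta-catenin and the NF-kappaB inhibitor IkappaB, was at 48.1 ± 4.504 CPM and 46.8 ± 4.37 CPM, a fold change of -0.04. *Fbxw5* differed by -0.01 and *Fbxo9*, a regulator of mTOR-complex assembly, by 0.08. *Fbxl15*, which targets the BMP-pathway ligase SMURF1, had a fold change of 0.41 (SE 0.37) at a level of 1.15 to 3.12 CPM over the 6 mice. That value was 0.77 without WT replicate 3 and 0.10 without mutant replicate 3, and 26.8% of the exonic length of *Fbxl15* is shared with *Cuedc2* on the opposite strand, a gene with 10754 counts over the 6 mice.

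Cell cycle and growth control took in 8 members, of which 7 were negative and 1 positive, with a median of -0.13. The same background shares, 48.6% of all genes and 63.5% of those above 16.0 CPM, apply here. *Fbxo31* (ENSMUSG00000052934, GRCm39 chromosome 8, 122276177 to 122305642, minus strand), which directs cyclin D1 to degradation after DNA damage, was at 93.8, 81.1 and 99.7 CPM in WT and 64.8, 77.9 and 78.2 CPM in mutants. Its genotypes were separated by the gap between 81.1 CPM in WT replicate 2 and 78.2 CPM in mutant replicate 3. The fold change was -0.31 (SE 0.16, edgeR unadjusted p = 0.0689), or -0.16 without both WT replicate 3 and mutant replicate 1. *Fbxw7*, the receptor for phosphorylated cyclin E, MYC and Notch, was at 47.5, 51.4 and 34.7 CPM in WT and 33.7, 39.2 and 48.8 CPM in mutants. The *Fbxw7* ranges were nearly the same in both genotypes, and its fold change of -0.13 was smaller than its SE of 0.19. *Fbxl7*, reported to target Aurora A, was the positive member at 0.23 (SE 0.27), or 0.048 without mutant replicate 3, and *Fbxo5* was at -0.01.

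Of the mitochondrial and iron receptors, *Fbxl5*, the iron sensor that degrades IRP2, was negative at -0.16 (SE 0.17), or -0.36 without mutant replicate 1 and -0.052 without mutant replicate 3. *Fbxl4*, a mitochondrial outer membrane protein that restrains mitophagy, was positive at 0.11 (SE 0.20), and *Fbxo7*, a Parkinson's disease gene linked to mitophagy and the proteasome, was at 0.02 (SE 0.18). None of the 3 had separate genotypes.

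Positive fold changes were largest among members of low level. *Fbxl16*, an FBXL protein reported not to assemble an active CUL1 ligase, had the most positive value of the 45 members, 0.52 (SE 0.30, edgeR unadjusted p = 0.109, adjusted p = 0.666). It was at 3.04, 2.87 and 1.78 CPM in WT and 3.00, 3.08 and 4.95 CPM in mutants. Only the third replicate of each genotype lay apart, and without WT replicate 3 or mutant replicate 3 the fold change was 0.31 or 0.25. *Fbxo44*, which carries an F-box-associated (FBA) domain, was at 7.93 ± 0.905 CPM in WT and 9.70 ± 2.40 CPM in mutants, a fold change of 0.29 (SE 0.22). *Fbxo6*, its neighbour on chromosome 4 with the same domain, was at -0.13. *Fbxw2* and *Fbxw9* were each at 0.10. Against these, *Fbxo8*, which carries a SEC7 domain of the kind found in ARF exchange factors, was among the more negative members, at 40.3, 44.5 and 49.6 CPM in WT and 40.6, 36.7 and 30.8 CPM in mutants. Mutant replicate 1 lay just inside the WT range, and the fold change of *Fbxo8* was -0.31 (SE 0.16, edgeR unadjusted p = 0.0753). With library size alone every mutant lay below every WT mouse for this gene. Exons of *Fbxo8* share 5.69% of their length with *Cep44* on the opposite strand.

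**Figure D4:**
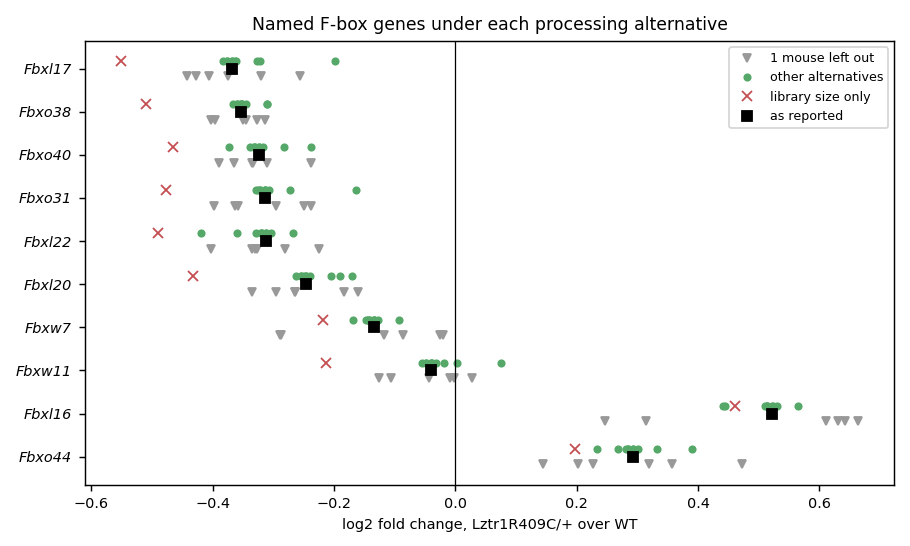
Log2 fold change, Lztr1R409C/+ over WT, of 10 named F-box genes as reported (squares) and under the alternatives, with 1 mouse left out in turn (triangles), library size as the only scaling (crosses) and the other alternatives (circles). The 6 genes with separate genotypes stay left of 0 under every alternative, *Fbxw11* crosses it, and library size alone gives the most negative value for each of the 6.

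The shared machinery of the SCF ligase was examined beside the receptors, with 35 genes for the core, the NEDD8 pathway, the COP9 signalosome, exchange factors and E2 or E3 partners. Of these, 23 (65.7%) were lower and 12 higher in mutants, with a median of -0.06. Of all genes tested 48.6% were lower, and of those above 16.0 CPM 63.5%. In edgeR, DESeq2 or the edgeR exact test, 0 machinery genes were past an adjusted p or an unadjusted p under 0.05. The adaptor *Skp1* had a fold change of -0.30 (edgeR unadjusted p = 0.185), the scaffold *Cul1* -0.16 and the RING protein *Rbx1* -0.08, each with overlapping mice. The smallest p belonged to *Nedd8*, the ubiquitin-like protein that activates cullins, at 22.03 ± 1.96 CPM in WT and 27.8 ± 3.57 CPM in mutants (fold change 0.34, edgeR unadjusted p = 0.0601). Next came the E2 enzyme *Cdc34* at 0.41 and the muscle-enriched exchange factor *Cand2* at -0.33. *Cand2* was at 126, 133 and 122 CPM in WT and 75.3, 107 and 120 CPM in mutants. It was 1 of 3 machinery genes, with *Arih1* and *Cops8*, in which every mutant lay below every WT mouse, where 7.23% of all genes tested and 12.3% of genes above 16.0 CPM did so.

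A list of 12 other F-box genes held those that the rule leaves out or that do not carry a family name. Of these 9 were tested, and 7 were lower and 2 higher in mutants, where 48.6% of all genes tested and 63.5% of those above 16.0 CPM were lower. *Fbxo32* was at 196 ± 26.3 CPM in WT and 152 ± 7.89 CPM in mutants, with separate genotypes and a fold change of -0.37 (edgeR unadjusted p = 0.0388, adjusted p = 0.554). *Kdm2a* (-0.24) was the other of 2 with every mutant below every WT mouse, where 7.23% of all genes tested and 12.3% of those above 16.0 CPM did so. *Fbxo30*, a ligase of denervation atrophy, was at -0.34 with overlapping mice (edgeR unadjusted p = 0.0857). *Ccnf*, cyclin F, the protein that gave the F-box its name, had a fold change of 1.14 at 0.306 to 1.26 CPM (edgeR unadjusted p = 0.0321, adjusted p = 0.540).

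A further 32 genes with *Fbxl*, *Fbxo* or *Fbxw* names had a row of counts and were not in the authors' table. Of these, 17 had no count in any mouse, 15 of them *Fbxw* genes, and the others had at most 88 counts in any mouse. The filter on low counts let 10 of them be tested, of which 7 were lower and 3 higher in mutants and 0 passed the adjusted threshold, with values such as -1.10 for *Fbxo47* and 1.07 for *Fbxo17* that lie outside the range of the 45 members. A pair of the 32 was singled out after the values were seen. *Fbxl13* had 0 counts in the 3 WT mice and 13, 3 and 9 in the mutants, too few to be tested, and *Fbxl2*, a substrate of FBXO3, had 17, 40 and 85 counts in WT and 15, 6 and 15 in mutants. The fold change of *Fbxl2* was -1.67 (edgeR unadjusted p = 0.0285). Its genotypes overlapped in TMM CPM, since mutant replicate 1, with the smaller scaled library, lay above WT replicate 1. The highest count, 85, was that of WT replicate 3.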

How the data were processed

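Total RNA of 6 hearts was sequenced with a kit whose strand setting was not stated. Per the labels and methods, reads were trimmed with Trim Galore and aligned to GRCm39 with HISAT2, and the authors deposited whole-number counts per gene from StringTie; versions, the annotation release and the counting step were not given in the sources used here. The deposited comparison table holds the authors' own log2 fold changes, log2 levels and p-values from edgeR. Only its gene identifiers and symbols were used.

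Counts of all genes were fitted with edgeR 4.0.16 in R 4.3.3 (TMM scaling, filterByExpr, robust quasi-likelihood, 2-sided, 17212 genes tested), and p-values were adjusted by Benjamini-Hochberg over all of them. The common biological coefficient of variation was 26.1%. No covariate was used. The fit was tested before use on simulated data whose changes were larger than that of any member. It therefore does not tell how well changes as small as those of the members are detected. Exonic lengths and coordinates came from GENCODE M39. DESeq2 1.42.0, other scalings and filters, a replicate block and each mouse left out were alternatives. Counting error alone underlies the 3-count levels. The edgeR p-values compare genotypes of 3 mice each. They set the difference against a spread between mice that is estimated with information from all genes tested.

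The members and lists were chosen with earlier results of these data known. Named members were the 8 of smallest p in each direction, those with separate genotypes, the 6 highest and 3 lowest per kilobase and a set of muscle, mitochondrial, signalling and other genes, 25 in all. Of these, 1 member is counted in the totals and not reported here. Exons of 25 members overlap a counted gene of the opposite strand, and their counts are uncertain to that extent. The promoter table gave no entry for 10 members.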

Additional observations from a re-analysis of the deposited data

How the results depend on the processing

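Adjusted p-values of the members stayed above 0.05 under every alternative run, and 0 members were called at a false discovery rate of 0.1. Of 25 named members, 16 kept their direction under all 17 alternatives, among them the 6 with separate genotypes. Scaling by library size only shifted the median of all genes to -0.14. It gave 0 members lower at an unadjusted p under 0.05 and a median log2 fold change of -0.24. Every mutant then lay below every WT mouse for 1 member, *Fbxo8* (2.22%, against 4.75% of all genes), and for none of the 6 separate as reported. This scaling turned *Fbxl4* (-0.024), *Fbxo7* (-0.12), *Fbxo9* (-0.12), *Fbxw2* (-0.095) and *Fbxw9* (-0.058) negative. Relative to all genes the median of the members was -0.09 there, against -0.11 as reported. Upper-quartile scaling gave 0 lower at that p, 5 members with every mutant below (5.41% of all genes), 1 with every mutant above (9.68% of all genes) and 1 machinery gene at that p. The median of all genes was then 0.055, and that of the members -0.056, or -0.11 relative to all genes. Upper-quartile scaling turned *Fbxo5* (0.034), *Fbxw11* (0.0018), *Fbxw17* (0.022) and *Fbxw5* (0.034) positive. A correction for gene length gave a median of -0.16, or -0.12 relative to all genes, and turned *Fbxo9* to -0.058. Under it the members lower at that p were, in edgeR, *Fbxl22* (-0.42, unadjusted p = 0.0162), *Fbxo40* (-0.37, unadjusted p = 0.0301) and *Fbxo38* (unadjusted p = 0.0323), and *Fbxl17* was not (unadjusted p = 0.0646). The cause of these changes was not tested for library size alone, upper-quartile scaling or the length correction.

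Leaving out each mouse in turn gave 0 to 3 members lower and 0 to 1 higher at that p, 0 to 3 machinery genes, 6 to 11 members with every mutant below and 0 to 2 with every mutant above, where 11.1% to 13% of all genes were below and 12.1% to 14.1% above. The count lower at that p was 1 without WT replicate 1 and 0 without WT replicate 2, WT replicate 3 or mutant replicate 3, and the 11 (24.4% of members, with 12.6% of all genes) came without mutant replicate 1 or mutant replicate 2. The median ran from -0.12 to -0.044, or from -0.13 to -0.044 relative to all genes. Among members that kept their sign, values moved by over 1.5 times for, among others, *Fbxl15* (0.10 to 0.77), *Fbxl7* (0.048 to 0.37), *Fbxl5* (-0.36 to -0.052), *Fbxo25* (-0.52 to -0.11), *Fbxw7* (-0.29 to -0.021), *Fbxo3* (-0.26 to -0.089), *Fbxl20* (-0.33 to -0.16) and *Fbxo44* (0.14 to 0.47). Signs changed for *Fbxo5* (-0.12 to 0.15), *Fbxw17* (-0.33 to 0.34), *Fbxw5* (-0.11 to 0.067), *Fbxo7* (-0.11 to 0.095), *Fbxw11* (-0.13 to 0.027), *Fbxw2* (-0.038 to 0.17), *Fbxw9* (-0.044 to 0.20) and *Fbxl4* (-0.015 to 0.25).

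The labels do not say whether replicate numbers pair the mice. Deviations of same-numbered mice from their group means correlated at -0.0013, 0.02 and -0.06 over genes. Deviations from means of 3 mice are tied to each other, so these values cannot exclude a pairing. With the replicate block 0 members were lower at an unadjusted p under 0.05, and *Fbxw17* turned to 0.085. After seeing the data, WT replicate 3 and mutant replicate 1, the extremes in mitochondrial share, were left out together, which gave 14 members with every mutant below (31.1%, against 19.9% of all genes), 4 with every mutant above (8.89%, against 21.2%) and 1 machinery gene at that p, with *Fbxw11* at 0.075, *Fbxw9* at -0.10, *Fbxl17* at -0.20 and *Fbxo31* at -0.16. Canonical transcript length, also added then, put *Fbxo40* at 48.3 CPM per kilobase.

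With 3 mice per genotype and a biological coefficient of variation of 26.1%, no difference of a member passed the adjusted threshold.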
